A study of Mus musculus with 11 samples.

Results

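Transcripts of 9 genes of the common gamma chain cytokine family were followed in whole lacrimal glands of NOD mice, a nonobese diabetic strain that spontaneously develops autoimmune inflammation. The 9 genes were taken by name from the gene table, which holds 19058 genes. They comprise 7 receptor chains (*Il2ra*, *Il2rb*, *Il2rg*, *Il7r*, *Il15ra*, *Il21r* and *Il4ra*) and 2 ligands (*Il7* and *Il15*). All 11 mice were male, with 1 library per mouse. There were 3 WT mice with no knockout allele, 5 *Tlr7* KO mice that carried a small deletion made by gene editing in NOD embryos, and 3 *Ifnar1* KO mice of the NOD.*Ifnar1*em16/em16 line. WT and *Tlr7* KO mice were 20 to 22 weeks old. No age was found for the *Ifnar1* KO mice. By the study's methods, a further *Ifnar1* KO mouse was left out by the authors because its gland grouped with WT and was inflamed to the same degree. The *Ifnar1* KO group was therefore chosen in part on an outcome, and every value, fold change and non-overlap given for it refers to the 3 mice kept. The comparisons ask which transcripts of the inflamed WT gland depend on the endosomal RNA sensor TLR7 or on the type I interferon receptor IFNAR1. The same WT mice served both comparisons.

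The common gamma chain, encoded by *Il2rg*, is the signalling subunit shared by the receptors for several lymphocyte cytokines. It pairs with a cytokine-specific chain such as the IL-7, IL-21 or IL-4 receptor alpha chain, or with the beta chain encoded by *Il2rb*, and signals through the kinases JAK1 and JAK3 to STAT proteins that promote lymphocyte survival, growth and differentiation. Most of these receptor chains are found mainly on lymphocytes, whereas the ligands *Il7* and *Il15* are made largely by stromal, epithelial and myeloid cells, and *Il15ra* is used by many cell types to present IL-15 to neighbouring lymphocytes.

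Several of the genes lie side by side in the mouse genome (GENCODE M21, GRCm38, the build of the files). *Il2ra* (chr2:11642807-11693193, plus strand) and *Il15ra* (chr2:11705290-11734317, plus strand) are 12096 bases apart with no annotated gene between them. *Il4ra* (chr7:125552120-125579474, plus strand) and *Il21r* (chr7:125603429-125633570, plus strand) are 23954 bases apart, also with no annotated gene between. *Il7r* (chr15:9505788-9530176, minus strand) and *Il2rb* (chr15:78479256-78495271, minus strand) share a chromosome but lie far from each other. *Il7* lies at chr3:7569994-7613760 (minus strand), *Il15* at chr8:82331632-82403222 (minus strand) and *Il2rg* at chrX:101264378-101268255 (minus strand). Reads of *Il2rg* can also match the read-through gene *Gm20489*, whose exons cover 30.5% of its exon bases, and antisense genes cover 9.51% of the exon bases of *Il4ra* (*Gm44876*) and 1.85% of those of *Il7* (*Gm16685*). Whether reads were counted by strand is not given in the sources used here.

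RefSeq promoters (GRCm38.p6) from 250 bases before to 50 bases after the start were matched for 6 of the 9 members, with *Il2rb*, *Il7* and *Il15* unmatched. The promoters of *Il2rg*, *Il7r* and *Il15ra* are shown, because these 3 receptor genes had unlike patterns in the glands, and capitals mark motif matches. The table holds 2 starts for *Il15ra*, of which the upstream window is shown. The lines run 5′ to 3′ on the strand of the gene, from chrX:101268206-101268505 (minus strand), chr15:9529827-9530126 (minus strand) and chr2:11705043-11705342 (plus strand).
Il2rg: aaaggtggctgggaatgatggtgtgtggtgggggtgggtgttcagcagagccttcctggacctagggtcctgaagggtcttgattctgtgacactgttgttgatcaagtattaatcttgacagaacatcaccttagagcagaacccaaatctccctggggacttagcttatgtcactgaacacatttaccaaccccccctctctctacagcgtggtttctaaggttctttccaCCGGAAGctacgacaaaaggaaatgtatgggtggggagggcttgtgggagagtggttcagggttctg
Il7r: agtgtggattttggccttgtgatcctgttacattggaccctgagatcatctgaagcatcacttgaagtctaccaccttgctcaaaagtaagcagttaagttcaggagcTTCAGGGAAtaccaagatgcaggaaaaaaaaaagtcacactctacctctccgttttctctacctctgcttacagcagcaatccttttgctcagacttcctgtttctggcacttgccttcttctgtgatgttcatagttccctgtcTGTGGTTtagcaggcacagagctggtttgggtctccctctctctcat
Il15ra: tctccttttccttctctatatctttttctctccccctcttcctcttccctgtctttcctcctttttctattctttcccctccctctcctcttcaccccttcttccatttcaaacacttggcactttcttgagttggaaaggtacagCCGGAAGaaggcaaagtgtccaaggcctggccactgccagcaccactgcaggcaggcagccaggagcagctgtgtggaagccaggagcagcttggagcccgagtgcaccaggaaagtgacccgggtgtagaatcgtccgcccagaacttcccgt

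The capitals mark the ETS-type letters CCGGAAG in *Il2rg* and in this start of *Il15ra*, which were in 8.86% of the 32851 promoters in the table. In *Il7r* they mark TTCAGGGAA, a match to the STAT-type letters TTCNNNGAA (8.3% of promoters), and the RUNX-type letters TGTGGTT (5.27% of promoters). Both strands were searched and no matches overlapped. The interferon response letters GAAANNGAAA (3.44% of promoters) and the STAT-type letters with a longer spacer, TTCNNNNGAA (6.95% of promoters), were not in the windows of the 6 matched genes. A match is a description of letters only, and nothing is drawn from it about binding.

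Libraries had 20512315 to 28814250 counts assigned to genes, so that 3 counts corresponded to 0.082 to 0.157 CPM (counts scaled to library size, here with TMM factors). CPM and floors cover counting error only. The WT 2 library stood apart from the other WT libraries. Its level was the lowest of the 3 WT mice for 9 of 9 members, and its 14 T cell markers summed to 35.9 CPM against 83.9 and 107.6 CPM in WT 3 and WT 1. Within the KO groups, *Tlr7* KO 2 had the highest level for 6 of 9 members and *Ifnar1* KO 2 for 9 of 9. *Tlr7* RNA was 0.496 to 0.949 CPM in *Tlr7* KO and 0.251 to 0.822 CPM in *Ifnar1* KO mice, and *Ifnar1* RNA was 8.28 to 11.1 CPM in *Tlr7* KO and 8.37 to 9.61 CPM in *Ifnar1* KO mice. The RNA level of either edited gene therefore gives no check of which KO a library came from. Because glands were sequenced whole, fewer cells of a type and less RNA per cell cannot be told apart in any value given here.

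In *Tlr7* KO compared with WT lacrimal glands, 5 of the 9 members (*Il2rg*, *Il2rb*, *Il7r*, *Il21r* and *Il4ra*) were DE (adjusted p under 0.05, edgeR quasi-likelihood test), all lower in *Tlr7* KO. Of all 13937 genes tested, 32.8% were called and 17.4% were called lower. The same 5 receptor chains were DE and lower in *Ifnar1* KO compared with WT, where 19.2% of genes were called and 12.4% were called lower. For 9 of 9 members the estimate was below 0 in each of these comparisons, as it was for 53.2% and 51.3% of all genes. The members' median was -1.06 (log2 fold change, *Tlr7* KO) and -2.35 (*Ifnar1* KO), and the median over all genes was -0.04 and -0.02. Between the KO strains 0 of 9 members were DE by edgeR, where 1.79% of genes were called.

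The shared chain *Il2rg* had the highest level per length of the 9 members in WT glands. Its level was 26.3, 7.54 and 22.4 CPM in WT 1, 2 and 3. It was 4.29, 7.89, 2.47, 3.63 and 4.09 CPM in *Tlr7* KO 1 to 5, and 1.61, 4.30 and 0.669 CPM in *Ifnar1* KO 1 to 3. All *Ifnar1* KO mice lay below all WT mice, whereas *Tlr7* KO 2 lay slightly above WT 2. *Il2rg* was 4.22-fold lower in *Tlr7* KO (log2 fold change -2.08 ± 0.419 SE, adjusted p = 0.00655, edgeR) and 8.74-fold lower in *Ifnar1* KO (-3.13 ± 0.682 SE, adjusted p = 0.0265, edgeR). The second deposited count table, in which *Gm20489* had 0 counts, held 37% of the *Il2rg* counts of the main table, against 60.2% to 75.8% for the other 8 members. Without *Ifnar1* KO 2 the estimate in *Ifnar1* KO was -4.04. The log2 fold changes from the second table were -2.02 (adjusted p = 0.0105, edgeR) and -3.16 (adjusted p = 0.0199, edgeR).

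*Il2rb*, the beta chain through which both IL-2 and IL-15 signal, followed a like order. Levels were 10.99, 3.36 and 8.53 CPM in WT 1 to 3, 1.84, 4.94, 1.14, 1.32 and 1.42 CPM in *Tlr7* KO 1 to 5, and 0.888, 2.47 and 0.209 CPM in *Ifnar1* KO 1 to 3. The high *Tlr7* KO 2 value overlapped WT, and the *Ifnar1* KO values did not. *Il2rb* was 3.6-fold lower in *Tlr7* KO (log2 fold change -1.85 ± 0.507 SE, adjusted p = 0.0219, edgeR) and 6.54-fold lower in *Ifnar1* KO (-2.71 ± 0.740 SE, adjusted p = 0.0430, edgeR). Its adjusted p in *Tlr7* KO was close to the threshold, at 0.0909 without WT 1, 0.0666 without WT 3, and between just over 0.05 and 0.0539 without *Tlr7* KO 1, 3, 4 or 5 (edgeR). The log2 fold change in these fits ran from -1.48 to -1.80, and the fits called 2601 to 3895 genes in all, against 4566 with every mouse. In *Ifnar1* KO the estimate was -3.78 without *Ifnar1* KO 2.

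*Il2ra*, the alpha chain that gives the IL-2 receptor its high affinity and marks regulatory and activated T cells, was near the low end of detection. It had 1.80, 0.681 and 1.42 CPM in WT, 0.881, 0.867, 0.607, 0.537 and 0.786 CPM in *Tlr7* KO, and 0.376, 0.598 and 0.460 CPM in *Ifnar1* KO mice. These were 11 to 53 counts per library. The *Ifnar1* KO mice lay below the WT mice, whereas the *Tlr7* KO mice overlapped WT 2. The log2 fold changes of -0.83 ± 0.334 SE in *Tlr7* KO (adjusted p = 0.0817, edgeR) and -1.48 ± 0.444 SE in *Ifnar1* KO (adjusted p = 0.0560, edgeR) did not pass the threshold. Without WT 2 they did, whereas without WT 1 or WT 3 they did not (-0.53 with adjusted p = 0.331 and -0.77 with adjusted p = 0.204 in *Tlr7* KO, edgeR). The passing values were -1.13 (*Tlr7* KO, adjusted p = 0.00733, edgeR) and -1.78 (*Ifnar1* KO, adjusted p = 0.0106, edgeR). *Il2ra* was also called in *Ifnar1* KO by DESeq2 (adjusted p = 0.0406) and in a single edgeR fit of all 11 mice (adjusted p = 0.0123), and in *Tlr7* KO when edgeR scaled by library size only (adjusted p = 0.0320).

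*Il15ra*, which presents IL-15, was the member whose level differed least between strains. Levels were 6.21, 3.62 and 5.82 CPM in WT 1 to 3, 4.33, 4.64, 4.37, 4.09 and 5.03 CPM in *Tlr7* KO 1 to 5, and 3.89, 5.20 and 3.39 CPM in *Ifnar1* KO 1 to 3. Every KO value except the 3.39 CPM of *Ifnar1* KO 3 lay within the WT range. The log2 fold change was -0.23 in *Tlr7* KO (95% interval -0.63 to 0.18, adjusted p = 0.358, edgeR) and -0.36 in *Ifnar1* KO (-0.97 to 0.26, adjusted p = 0.355, edgeR). These intervals leave room for a modest decrease, and the *Tlr7* KO estimate moved with the WT mouse left out. It was -0.43 without WT 2 (adjusted p = 0.0146), -0.073 without WT 1 (adjusted p = 0.815) and -0.14 without WT 3 (adjusted p = 0.657, edgeR).

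**Figure D1:**
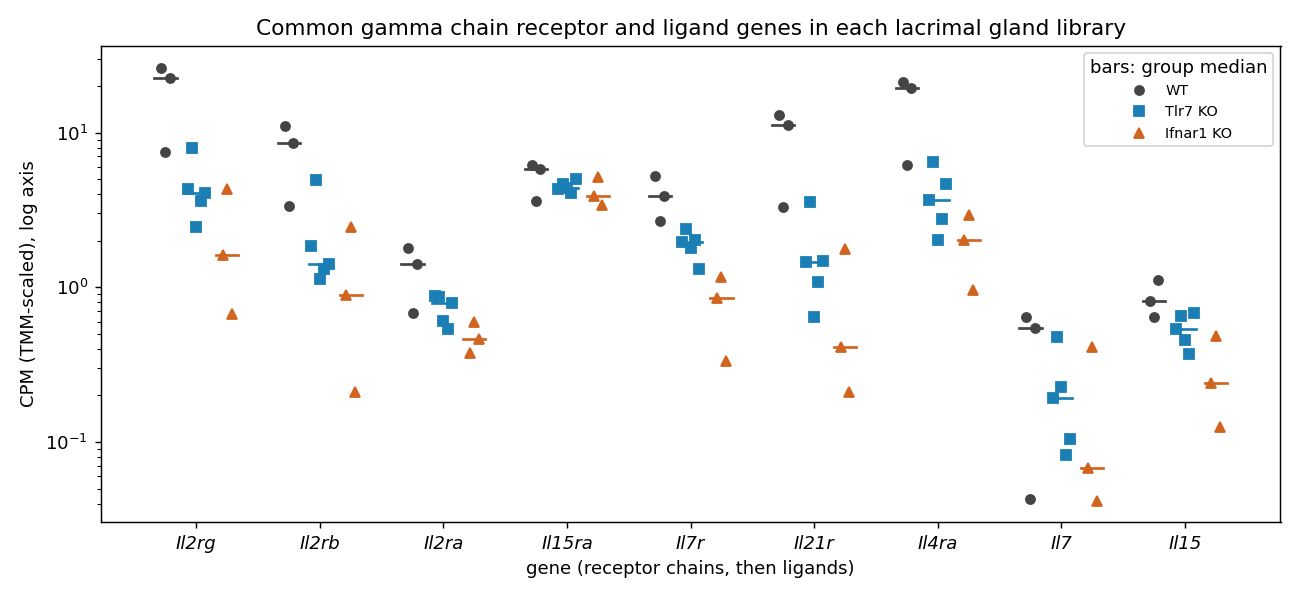
Level of each member in each library, in CPM after TMM scaling on a log axis, with WT as circles, *Tlr7* KO as squares, *Ifnar1* KO as triangles and a bar at each group median. *Il2rg* lies between 7.54 and 26.3 CPM in WT and between 0.669 and 4.30 CPM in *Ifnar1* KO, whereas *Il15ra* lies between 3.39 and 6.21 CPM in all 11 libraries.

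*Il7r*, the IL-7 receptor chain of naive and memory T cells, was the only member whose *Tlr7* KO mice all lay below all WT mice. Its level was 5.22, 2.68 and 3.88 CPM in WT, 1.95, 2.38, 1.78, 2.02 and 1.31 CPM in *Tlr7* KO, and 0.854, 1.16 and 0.334 CPM in *Ifnar1* KO mice. The 3 groups did not overlap one another. *Il7r* was 2.08-fold lower in *Tlr7* KO (log2 fold change -1.06 ± 0.244 SE, adjusted p = 0.0112, edgeR) and 5.08-fold lower in *Ifnar1* KO (-2.35 ± 0.444 SE, adjusted p = 0.0230, edgeR). Without WT 1 the *Tlr7* KO estimate was -0.79 (adjusted p = 0.0523, edgeR). Groups that did not overlap, with the KO lower, were found for 1 of 9 members in *Tlr7* KO, against 14.5% of all genes tested, and for 7 of 9 in *Ifnar1* KO, against 21.2%. In *Ifnar1* KO the exceptions were *Il7* and *Il15ra*.

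*Il21r*, the receptor for the T cell cytokine IL-21 that acts on B cells and T cells, had the largest fold change of the 9 members in both comparisons. Levels were 12.9, 3.28 and 11.1 CPM in WT 1 to 3, 1.45, 3.55, 0.645, 1.07 and 1.47 CPM in *Tlr7* KO 1 to 5, and 0.410, 1.76 and 0.209 CPM in *Ifnar1* KO 1 to 3. *Tlr7* KO 2 lay above WT 2, and no *Ifnar1* KO mouse reached the WT range. *Il21r* was 5.61-fold lower in *Tlr7* KO (log2 fold change -2.49 ± 0.529 SE, adjusted p = 0.00821, edgeR) and 11.7-fold lower in *Ifnar1* KO (-3.55 ± 0.780 SE, adjusted p = 0.0267, edgeR). Without *Ifnar1* KO 2 the latter estimate was -4.86.

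Its chromosomal neighbour *Il4ra*, the chain that binds IL-4 and is shared with the IL-13 receptor, was DE in both comparisons. It had 21.2, 6.18 and 19.4 CPM in WT, 3.68, 6.46, 2.01, 2.77 and 4.67 CPM in *Tlr7* KO, and 2.01, 2.92 and 0.961 CPM in *Ifnar1* KO mice. Only *Tlr7* KO 2 among the KO mice lay within the WT range. *Il4ra* was 4.03-fold lower in *Tlr7* KO (log2 fold change -2.01 ± 0.428 SE, adjusted p = 0.00823, edgeR) and 8.10-fold lower in *Ifnar1* KO (-3.02 ± 0.547 SE, adjusted p = 0.0229, edgeR).

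Leaving out WT 1, WT 3, *Ifnar1* KO 1 or *Ifnar1* KO 3 from the *Ifnar1* KO comparison left few calls over all genes (13, 104, 0 and 0), and 0 members among them, so that these fits say little about the members. The log2 fold changes of the 5 chains in these fits were -2.72 to -2.99 for *Il2rg*, -3.13 to -3.39 for *Il21r*, -2.71 to -3.001 for *Il4ra*, -2.01 to -2.38 for *Il7r* and -2.24 to -2.64 for *Il2rb*. With WT 2 left out, 7 members were DE (*Il2ra* and *Il15* in addition) as 34.4% of all genes were, and with *Ifnar1* KO 2 left out the same 5 were, with 11.4% of all genes called. In *Tlr7* KO, *Il2rg*, *Il21r* and *Il4ra* were DE whichever single library was left out. The number of members called ran from 3 without WT 1, where 20.9% of all genes were called, to 8 without WT 2, where 48.9% were called and *Il7* alone of the members was not.

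The ligands were scarce. *Il15* was at 0.814, 0.639 and 1.12 CPM in WT, 0.536, 0.650, 0.455, 0.372 and 0.682 CPM in *Tlr7* KO, and 0.239, 0.486 and 0.125 CPM in *Ifnar1* KO mice, or 3 to 41 counts. All *Ifnar1* KO mice lay below all WT mice, and *Tlr7* KO mice overlapped WT 2. The log2 fold change of *Il15* was -0.69 ± 0.310 SE in *Tlr7* KO (adjusted p = 0.115, edgeR) and -1.61 ± 0.524 SE in *Ifnar1* KO (adjusted p = 0.0679, edgeR), and without WT 2 both passed (-0.86 with adjusted p = 0.0472, and -1.79 with adjusted p = 0.0413, edgeR). Without WT 1 or WT 3 the *Tlr7* KO values were -0.72 (adjusted p = 0.200) and -0.44 (adjusted p = 0.410, edgeR). In *Ifnar1* KO the estimate was -2.22 without *Ifnar1* KO 2 (adjusted p = 0.0516), and a single fit of all 11 mice, which called 36.8% of all genes, called *Il15* (adjusted p = 0.0177, edgeR). Scaling by library size only called it in *Tlr7* KO (-1.25, adjusted p = 0.0442, edgeR).

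*Il7*, the stromal survival factor for lymphocytes, had 1 to 20 counts per library. Levels were 0.645, 0.0426 and 0.547 CPM in WT, 0.191, 0.477, 0.228, 0.0826 and 0.105 CPM in *Tlr7* KO, and 0.0683, 0.411 and 0.0418 CPM in *Ifnar1* KO mice. The 3 groups overlapped, with WT 2 at a single count. A difference was not detectable with these mice and counts (log2 fold change -0.95, 95% interval -2.56 to 0.67, in *Tlr7* KO, and -1.29, -3.66 to 1.08, in *Ifnar1* KO). Without *Ifnar1* KO 2, the KO mouse with the most *Il7* in its group, the latter estimate was -2.84 (adjusted p = 0.157, edgeR), and without WT 2 the values were -1.43 (adjusted p = 0.0524) and -1.78 (adjusted p = 0.122, edgeR).

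**Figure D2:**
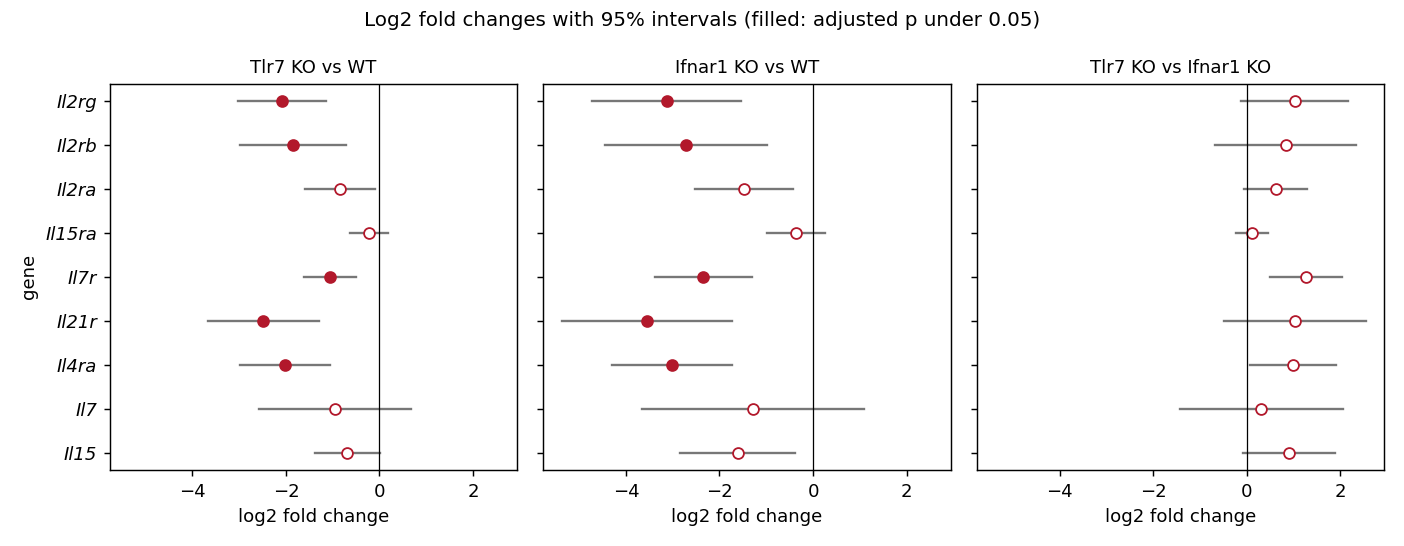
Log2 fold change of each member (points) with its 95% interval (lines) in the 3 comparisons on a common axis, filled where the adjusted p from edgeR was under 0.05. The estimates run from -0.23 to -2.49 in *Tlr7* KO and from -0.36 to -3.55 in *Ifnar1* KO, and 0 of 9 points are filled between the KO strains.

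Between the KO strains, the 9 estimates lay above 0, that is, higher in *Tlr7* KO than in *Ifnar1* KO, as did 50.2% of all genes tested. *Il7r* had the largest estimate and was the only member whose KO groups did not overlap, which held in that direction for 5.44% of all genes tested. It was 2.41-fold higher in *Tlr7* KO (log2 fold change 1.27 ± 0.348 SE, 95% interval 0.49 to 2.04), and its adjusted p of 0.110 (edgeR) did not pass the threshold. By an unadjusted p under 0.05 *Il7r* and *Il4ra* (0.99, 95% interval 0.07 to 1.91) passed, against 16.3% of all genes tested. DESeq2 called *Il7r* alone of the members (adjusted p = 0.0218) and 577 genes in all. Without *Ifnar1* KO 2, *Il7r* (1.65, adjusted p = 0.0311, edgeR) and *Il2rg* (1.95, adjusted p = 0.0422, edgeR) were called, among 877 genes in all against 250 with every mouse. For *Il15ra* the interval was narrow (0.11, 95% interval -0.22 to 0.45), and for *Il7* it was wide (0.32, -1.42 to 2.06). On the 10 interferon-stimulated genes listed for comparison, 9 were DE and higher in *Tlr7* KO than in *Ifnar1* KO, where 0.926% of all genes were called higher.

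Divided by exon length, the order of members differed between strains. In WT glands the group medians were 9.38 CPM per kb for *Il2rg*, 3.35 for *Il21r*, 3.23 for *Il4ra*, 1.99 for *Il2rb*, 1.31 for *Il15ra*, 0.833 for *Il7r*, 0.360 for *Il15*, 0.249 for *Il2ra* and 0.0965 for *Il7*. The ranges of neighbours in this order overlapped between mice, except *Il7r* with *Il15* and *Il2ra* with *Il7*. Within a library the order held in every WT mouse, save that WT 2 had *Il4ra* above *Il21r* and *Il15ra* above *Il2rb*. In *Tlr7* KO glands *Il2rg* had a median of 1.71 CPM per kb (range 1.03 to 3.30) in the main table. By median it was followed by *Il15ra* (0.982, range 0.920 to 1.13), whose range overlapped it, *Il4ra* (0.612) and *Il21r* (0.438). Within each *Tlr7* KO library *Il2rg* lay above *Il15ra* by these counts. In the second table *Il2rg* had 43, 82, 23, 28 and 28 counts in *Tlr7* KO 1 to 5, over 2387 exon bases. *Il15ra* had 90, 77, 86, 63 and 61 counts there, over 4446 exon bases. Which of them came first in *Tlr7* KO thus depended on the table. In *Ifnar1* KO glands *Il15ra* came first by its median (0.876 CPM per kb, range 0.761 to 1.17), ahead of *Il2rg* (0.672, range 0.280 to 1.80), whose range overlapped it, and *Il21r* was at 0.123. Within libraries of this group *Il2rg* lay above *Il15ra* in *Ifnar1* KO 2 alone.

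Of 28 other genes of the pathway, 23 were abundant enough to test. In *Tlr7* KO compared with WT, 12 were called lower and 1 higher, and in *Ifnar1* KO compared with WT, 9 were called lower and 0 higher, where 17.4% and 12.4% of all genes were called lower. Each count of lower calls includes *Il21*, which the filter kept through its WT counts alone, so that its call adds no support. Between the KO strains 0 were called by edgeR (5 of 23 at an unadjusted p under 0.05, against 16.3% of all genes) and 2 by DESeq2. Among ligands, only *Il21*, the cytokine of T follicular helper cells, could be tested. It had 54, 10 and 28 counts in the WT mice, 1, 1, 0, 1 and 0 counts in the *Tlr7* KO mice and 0 counts in each *Ifnar1* KO mouse, and it passed the filter through its WT counts alone. Taken against a floor of 3 counts per library, *Il21* was at least 6.41-fold lower in *Tlr7* KO and at least 8.04-fold lower in *Ifnar1* KO, and at least 3.79-fold and 4.75-fold lower when WT 1 was left out. *Il4* (at most 0.303 CPM in any mouse) and *Tslp* (at most 0.224 CPM) were too low to test, and *Il2*, *Il9* and *Il13* had no row in the main table.

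Of the other receptor chains, *Il9r*, which pairs with the common gamma chain, had 1.70, 0.639 and 2.54 CPM in WT, 0.289 to 0.629 CPM in *Tlr7* KO and 0.0836 to 0.561 CPM in *Ifnar1* KO mice, and neither KO group overlapped WT. It was lower in *Tlr7* KO (log2 fold change -1.76 ± 0.418 SE, adjusted p = 0.0123, edgeR), and in *Ifnar1* KO the value was -2.23 ± 0.684 SE (adjusted p = 0.0590, edgeR). *Il13ra1*, the IL-13 receptor chain that joins *Il4ra*, was lower in both (-0.75, adjusted p = 0.0348, and -1.30, adjusted p = 0.0434, edgeR). *Crlf2*, the TSLP receptor chain that joins *Il7r*, was lower in *Tlr7* KO (-0.69, adjusted p = 0.0233, edgeR), and in *Ifnar1* KO its value was -0.70 (adjusted p = 0.130, edgeR).

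Values differed among the signalling genes. *Jak3*, the kinase bound to the common gamma chain, had 8.72, 2.09 and 9.65 CPM in WT, 1.33 to 3.55 CPM in *Tlr7* KO and 0.585 to 1.91 CPM in *Ifnar1* KO mice, with overlap only in *Tlr7* KO. It was lower in both comparisons (log2 fold change -1.87, adjusted p = 0.0165, and -2.62, adjusted p = 0.0335, edgeR). *Pik3cd*, the leukocyte phosphoinositide kinase subunit, was lower by a like amount (-1.82, adjusted p = 0.00885, and -2.74, adjusted p = 0.0235, edgeR). *Jak1*, the broadly expressed partner kinase, had values of 0.11 (95% interval -0.13 to 0.35) and -0.17 (-0.49 to 0.14) that were not called. The adaptor *Shc1* was the gene called higher in *Tlr7* KO (0.28, adjusted p = 0.0262, edgeR). *Stat5b* was called lower in *Tlr7* KO only (-0.32, adjusted p = 0.0412, edgeR), and *Stat3*, *Stat5a* and *Stat6* were called in neither comparison. *Jak1*, *Shc1* and the STAT genes are named here after their values were seen.

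Of the 10 feedback and target genes, 5 were called lower in each comparison, beside 17.4% and 12.4% of all genes. *Bcl2*, a survival gene induced by IL-7, had 4.78, 2.43 and 4.59 CPM in WT, 1.06 to 1.82 CPM in *Tlr7* KO and 0.836 to 1.38 CPM in *Ifnar1* KO mice, without overlap with WT. It was lower in *Tlr7* KO (log2 fold change -1.53, adjusted p = 0.00376, edgeR) and in *Ifnar1* KO (-1.92, adjusted p = 0.0229, edgeR). *Socs3*, a feedback inhibitor of STAT signalling, was lower in both (-1.11, adjusted p = 0.0310, and -1.52, adjusted p = 0.0423, edgeR). *Socs1*, the feedback inhibitor that is also induced by interferons, was called lower in *Ifnar1* KO (-3.32, adjusted p = 0.0269, edgeR). It had 3, 9 and 2 counts in those mice, against 73, 13 and 79 in WT 1 to 3. The KO counts lie near the floor of 3 counts, so the size of this fall is uncertain. In *Tlr7* KO mice *Socs1* ranged from 0.0380 to 1.26 CPM, and its value of -1.70 was not called (adjusted p = 0.130, edgeR). Called in neither comparison were *Cish* (0.09 and 0.03), *Myc* (-0.07 and -0.34) and *Pim2* (-0.45 and -0.42), named here after their values were seen.

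**Figure D3:**
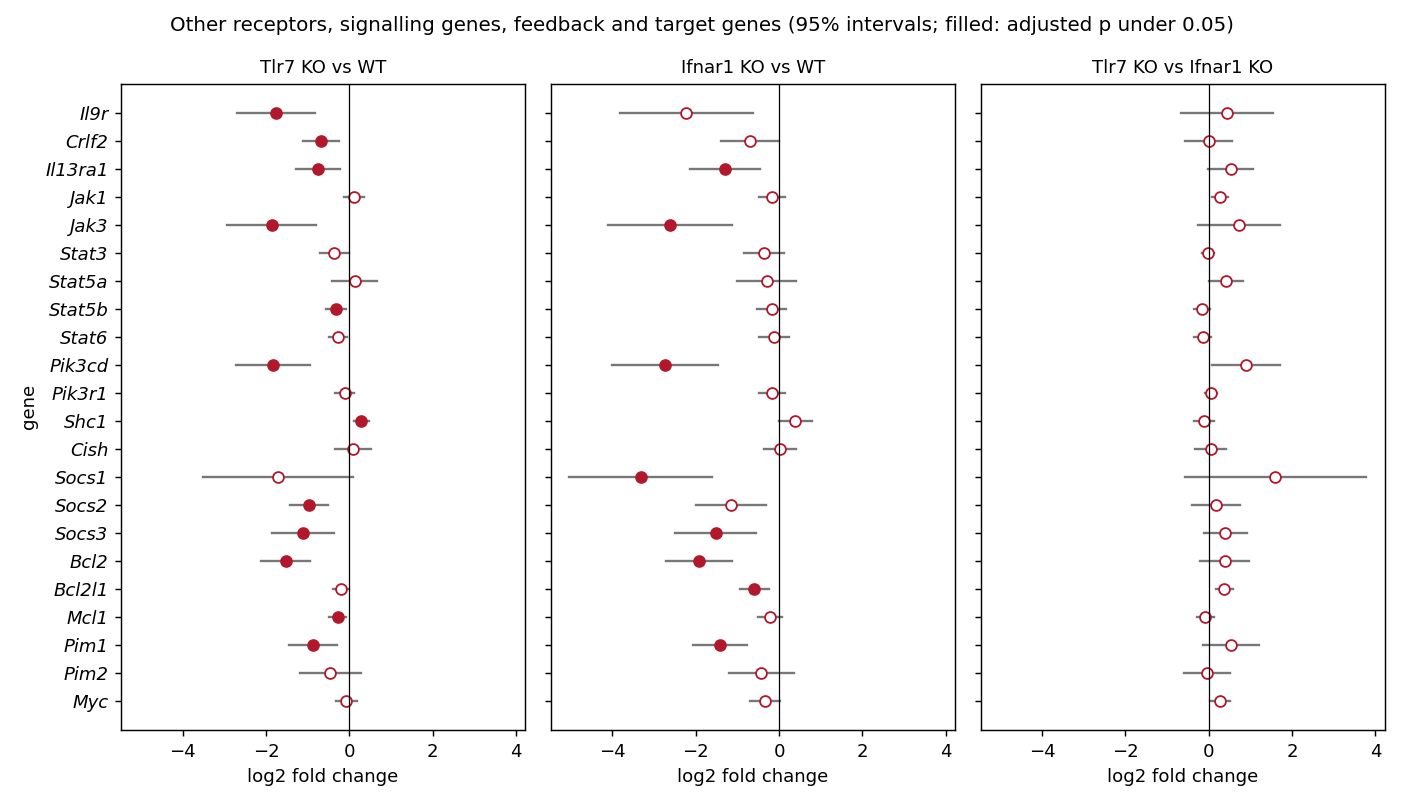
Log2 fold change (points) with 95% interval (lines) of the other receptor chains, signalling genes, and feedback and target genes in the 3 comparisons on a common axis, filled where the adjusted p from edgeR was under 0.05. *Jak3* (-1.87 and -2.62) and *Pik3cd* (-1.82 and -2.74) lie far to the left in both comparisons with WT, and *Jak1* (0.11 and -0.17) lies near 0.

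Markers of lymphocytes and myeloid cells moved with the receptor chains. Of 14 T cell markers, 11 were called lower in *Tlr7* KO and 12 in *Ifnar1* KO, and their summed level ran from 35.9 to 107.6 CPM in WT, 8.12 to 43.1 CPM in *Tlr7* KO and 2.26 to 20.6 CPM in *Ifnar1* KO mice. All 9 B cell markers were called lower in each comparison, as were 3 and 6 of 7 NK cell markers and 4 and 3 of 5 regulatory T cell markers, where 17.4% and 12.4% of all genes were. NK cell markers at 0 were *Ncr1*, *Klrb1c* and *Klrk1* in *Ifnar1* KO 3 and *Klrb1c* in *Tlr7* KO 4. Of 11 myeloid markers, 7 were called lower in *Tlr7* KO and 6 in *Ifnar1* KO, and their sum was 303 to 534 CPM in WT, 219.9 to 277.2 CPM in *Tlr7* KO and 77.3 to 207.2 CPM in *Ifnar1* KO mice. The 10 gland epithelium markers, by contrast, summed to 1082 to 1363 CPM in WT and to 1534 to 1759 CPM in the KO mice, with 3 called higher and 1 lower in *Tlr7* KO and 1 higher and 1 lower in *Ifnar1* KO. Of all 13937 genes tested, 2135 were called higher in *Tlr7* KO and 942 in *Ifnar1* KO. Of the 8 stroma and vessel markers tested, 4 were called lower in each comparison, and the list summed to 74.7 to 116.6 CPM in WT, 52.7 to 81.5 CPM in *Tlr7* KO and 52.6 to 59.6 CPM in *Ifnar1* KO mice. The 5 muscle markers, of which 0 were called in each comparison by edgeR, summed to 345.9, 248.03 and 251.03 CPM in WT 1, WT 2 and *Tlr7* KO 4 and to at most 9.46 CPM in the other libraries. The part of these cell types in the members' values was not tested.

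Each receptor chain was also set against the CD3 genes (*Cd3d*, *Cd3e* and *Cd3g*, subunits of the T cell receptor complex) of the same library. The log2 ratio of *Il2rg* to CD3 was 1.79 ± 0.078 (SD, n = 3) in WT, 1.67 ± 0.200 (n = 5) in *Tlr7* KO and 1.53 ± 0.117 (n = 3) in *Ifnar1* KO mice. For *Il2rb* it was 0.53 ± 0.118, 0.51 ± 0.309 and 0.54 ± 0.232, and for *Il4ra* 1.53 ± 0.079, 1.48 ± 0.338 and 1.61 ± 0.608. The *Il2rb* and *Il4ra* differences were thus smaller than the spread between mice. In *Ifnar1* KO 3 the CD3 genes had only 5, 2 and 5 counts, so that its ratios depend on the prior count of 2 added before the logarithm. With a prior count of 0.5 its *Il2rg* ratio moved from 1.66 to 1.98, from below to above the WT mice (1.75 to 1.89 with that prior), and no difference is drawn from the *Il2rg* ratio.

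The ratios of *Il15ra*, *Il2ra* and *Il7r* to CD3 were higher in the KO means than in WT. A ratio rises when the CD3 level falls more than the chain does, so it is no measure of receptor RNA per T cell. *Il15ra* itself had log2 fold changes of -0.23 and -0.36, where the median T cell marker had -1.68 and -2.84 (*Tlr7* KO and *Ifnar1* KO). *Il15ra* had a log2 ratio of 0.11 ± 0.490 in WT, 1.78 ± 0.748 in *Tlr7* KO and 2.77 ± 1.06 in *Ifnar1* KO mice, and *Il2ra* had -1.89 ± 0.261, -0.73 ± 0.649 and -0.16 ± 1.22. For *Il7r* the values were -0.30 ± 0.503, 0.54 ± 0.660 and 0.35 ± 0.600, and both KO groups overlapped WT. For *Il15ra* and *Il2ra*, *Tlr7* KO overlapped WT through *Tlr7* KO 2 (0.65 and -1.67, against 0.68 and -1.61 in WT 2). The *Ifnar1* KO mice lay above WT for both. *Ifnar1* KO 3, with its few CD3 counts, had the highest ratio of its group for each of these 3 chains, and without it the difference between *Ifnar1* KO and WT was 1.06 in place of 1.73 for *Il2ra*, 2.11 in place of 2.66 for *Il15ra* and 0.43 in place of 0.65 for *Il7r*. The *Il21r* ratio was lower in every KO mouse than in every WT mouse, with 0.72 ± 0.164 in WT, 0.16 ± 0.187 in *Tlr7* KO and 0.06 ± 0.354 in *Ifnar1* KO mice. The two-sided exact permutation test of *Il21r* gave p = 0.0179 for *Tlr7* KO and p = 0.1 for *Ifnar1* KO, each the smallest that these group sizes allow. With the prior count of 0.5 the *Il21r* ratio still lay lower in all 8 KO mice (at most 0.38) than in WT mice (at least 0.55), although *Ifnar1* KO 3 had 5 counts of *Il21r*. Over the 21 ratios compared (7 chains in 3 comparisons), 0 passed after adjustment (lowest adjusted p = 0.3), and with 3 mice against 3 no ratio could. With 5 mice against 3, a ratio at the smallest p of the exact test (0.0179) could pass only if several others reached it too.

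**Figure D4:**
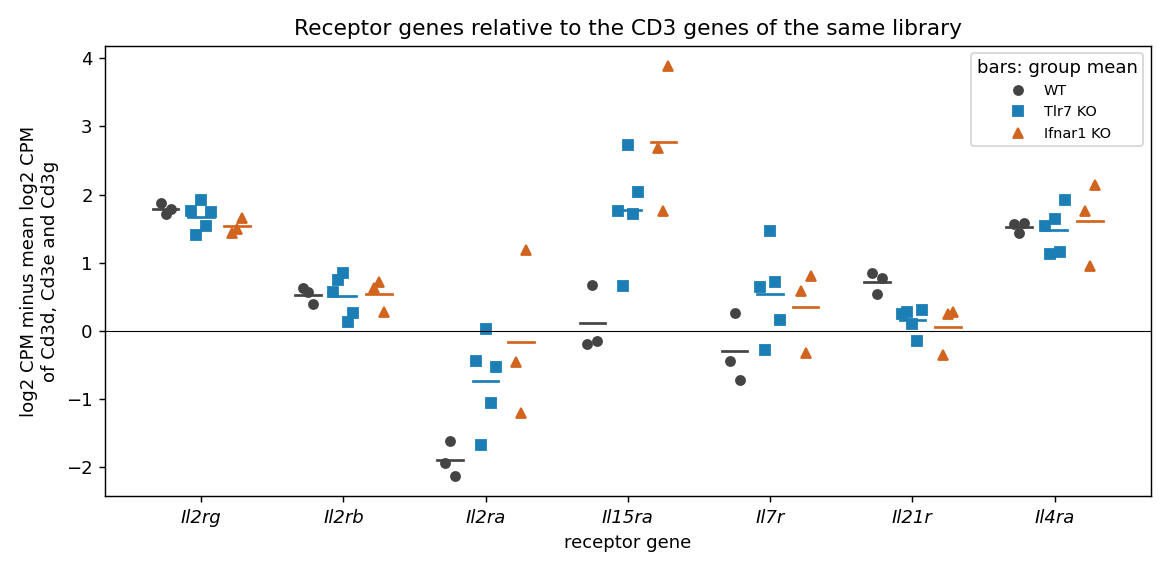
Log2 CPM of each receptor chain minus the mean log2 CPM of *Cd3d*, *Cd3e* and *Cd3g* in the same library (prior count of 2), with WT as circles, *Tlr7* KO as squares, *Ifnar1* KO as triangles and a bar at each group mean. *Il2rb* and *Il4ra* have group means near WT, the *Il2rg* value of *Ifnar1* KO 3 depends on the prior count, *Il15ra*, *Il2ra* and *Il7r* have higher means in the KO groups, and *Il21r* lies lower in all 8 KO mice.

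The genes whose log2 CPM ran most like a member over the 11 mice were found by the root mean square difference after centring each gene, as a description. For *Il2rg* they were the pan-leukocyte genes *Coro1a*, *Cd52* and *Ptprc* (0.144 to 0.186), and for *Il2rb* they were *Traf1*, *Cd3e* and *Cd3g* (0.217 to 0.235). *Il4ra* ran nearest to *Cst7*, *Evl* and *Gm8995* (0.0869 to 0.184). *Il7r* had *Chtf18*, *Spi1* and *Car13* nearest (0.215 to 0.248), and *Il15* had *Eml2*, *Tagln2* and *Alox5ap* (0.218 to 0.237). *Il15ra* ran nearest to *Uhmk1*, *Klhl42* and *Nubp2* (0.104 to 0.121), 3 genes that are not lymphocyte markers, and *Il2ra* to *9930111J21Rik2*, *Prickle2* and *Rtl8c* (0.150 to 0.159). *Il7* had no close match (0.411 and above). Genes were not scaled by their spread, so a gene of flat level such as *Il15ra* lies near other flat genes. Counting error also enlarges the difference, as for *Il7*, and nothing is drawn from these matches about cell types.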

How the data were processed

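RNA from whole lacrimal glands of 11 male NOD mice was sequenced on an Illumina HiSeq instrument. The authors quantified reads with salmon and summed transcripts to genes with tximport, and the deposited main table holds the resulting estimated counts, rounded, for 19058 genes. Although named as normalized, its library sizes differ like raw counts (size factors of both tables correlated at 0.994). Raw counts for 39017 genes form the other table deposited by the authors, and HISAT2 2.1.0 is named in the submitters' processing notes. A further column (1 column), named as another *Ifnar1* KO mouse, matched no sample and was not used. The authors dropped an *Ifnar1* KO mouse after viewing its principal components and gland inflammation, and whether this column is that mouse is not given in the sources used here.

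Genes with a summed WT count of at least 30 were tested with edgeR 4.0.16 (TMM scaling, quasi-likelihood test, R 4.3.3, limma 3.58.1) in a separate fit for each of 3 comparisons, with Benjamini-Hochberg adjustment over all genes tested, and tests are two-sided. Ratios to CD3 used log2 CPM (prior count of 2) and an exact permutation test. The fit was tested on simulated data, and no result given here rests on that check. Alternatives were DESeq2 1.42.0, other scalings and filters, all 11 mice in a single fit, the second table, a replicate block and leaving out each mouse. The members, lists and alternatives were chosen with earlier results of these data known. Named are all members, *Tlr7*, *Ifnar1*, the other ligands and receptors, the 4 signalling, feedback or target genes with the largest change per comparison among those called, and the 3 genes nearest to each member in pattern (those of *Il21r* are not reported here). No batch was named or modelled. Marker and pathway lists were written from general knowledge.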

Additional observations from a re-analysis of the deposited data

Results flagged for a closer look

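*Tlr7* KO 2 stood apart from the other 4 *Tlr7* KO mice in the level of *Il2rb* (4.94 CPM, with a gap of 0.816 of the group's range) and of *Il21r* (3.55 CPM, with a gap of 0.717 of the range), by Dixon's criterion for 5 samples (0.71). Chance marks about 1 in 20 groups in this way. This mouse also had the highest sums of its group for T cell markers (43.1 CPM, against 8.12 to 17.8 CPM in the other 4), B cell markers (52.7 against 6.64 to 21.3 CPM), interferon-stimulated genes (197.5 against 66.4 to 119.3 CPM) and adipocyte markers (21.6 against 5.01 to 9.91 CPM). Its sums were also the highest for regulatory T cell (8.28 against 2.05 to 3.18 CPM), NK cell (5.85 against 2.20 to 4.88 CPM) and myeloid markers (277.2 against 219.9 to 269.2 CPM). They were not the highest for gland epithelium, stroma and vessel, or muscle markers. The part of these lists in the *Il2rb* and *Il21r* levels was not tested.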

How the results depend on the processing

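The 9 member estimates kept their direction in both comparisons with WT under every alternative run in which they could be tested. The number of members called kept within 1.5 times under DESeq2, RLE factors, library size only, 3 other filters, a single fit and the second table, with these exceptions between KO strains. There DESeq2 called 1 member, 2 other pathway genes and 577 genes in all, and the single fit 93 genes. In *Ifnar1* KO against WT, 1340 genes were called with library size only and 5124 in the single fit. Scaling by library size only shifted the median of all genes to -0.54 in *Tlr7* KO, -0.31 in *Ifnar1* KO and -0.19 between KO strains, and raised the share of calls that were lower from 53.2% to 97.2% and from 64.8% to 96.2% against WT, and from 48.4% to 69.4% between KO strains, where *Il15ra* turned to -0.088.

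Leaving out each mouse in turn gave 3 to 8 members, 2601 to 6595 genes and 4 to 16 other pathway genes called in *Tlr7* KO, and 0 to 7, 0 to 4643 and 0 to 13 in *Ifnar1* KO. Between the KO strains it gave 0 to 2, 85 to 877 and 0 to 1, and the estimates ran from -0.17 to 1.88 for *Il7* and from -0.0091 to 0.31 for *Il15ra*. Ratios to CD3 that changed sign in this way ran from -0.11 to 0.073 for *Il2rb* and -0.16 to 0.038 for *Il4ra* in *Tlr7* KO, and from -0.076 to 0.14 and -0.18 to 0.42 in *Ifnar1* KO. Between KO strains they ran from -1.10 to 0.10 for *Il2ra*, -0.16 to 0.063 for *Il2rb*, -0.15 to 0.41 for *Il7r*, -0.10 to 0.21 for *Il21r* and -0.47 to 0.13 for *Il4ra*. The cause of these changes was not tested.

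With replicate number as a block, 0 members, 17 genes and 0 other pathway genes were called in *Tlr7* KO, 0, 0 and 0 in *Ifnar1* KO, and 5, 533 and 1 between KO strains. The block fits kept only replicate numbers present in both groups, so that *Tlr7* KO 4 and *Tlr7* KO 5 were left out. For *Tlr7* KO, the part of the block and that of the smaller group in these counts were not tested. With the block, log2 fold changes in *Tlr7* KO were -1.94 (*Il2rg*), -1.67 (*Il2rb*), -0.91 (*Il7r*), -2.37 (*Il21r*) and -1.93 (*Il4ra*). In *Ifnar1* KO they were -3.26, -2.97, -2.41, -3.71 and -2.94 in the same order. Same-numbered mice share only a number, and their deviations correlated at -0.40 to 0.03 for *Tlr7* KO with WT, -0.44 to -0.16 for *Ifnar1* KO with WT and 0.06 to 0.34 between KO strains. At 1 to 20 counts per library *Il7* carries a large counting error, beside a spread between WT mice (1 count in WT 2) that was not separated from it. Counts also limit the ratios to CD3 in *Ifnar1* KO 3 (2 to 5 counts of each CD3 gene), where a prior count of 0.5 changed the *Il2rg* difference from -0.26 to -0.13. Leaving out WT 1 lowered the bound on *Il21* as given above, an alternative chosen after seeing the data.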
